A study of Homo sapiens with 18 samples.

Results

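G2 and M phase genes encode the proteins with which a cell enters, carries out and leaves mitosis. A set of 48 such genes was followed in RNA sequencing counts of Raji cells. The members are named in a list of G2 and M phase genes. The rule uses no measured value, but the list was chosen with earlier results of these data known. All 48 were found among the 60707 genes read from the deposited table. Of these, 47 passed the filter on low counts and were tested. GAS2L3, an actin and microtubule linker that acts in cytokinesis, had 0 counts in all 18 libraries. At a floor of 3 counts per library, that allows at most 0.11 CPM (library-scaled counts) in the shallowest library, by counting error alone.

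Raji is an established line of human Burkitt lymphoma B cells. The series concerns SMARCA4 (also named BRG1), the motor subunit of the BAF chromatin remodelling complexes, and a degron that lets auxin trigger breakdown of the SMARCA4 protein. All samples carry the genotype label Smarca4+/+. The groups were cells of high GFP and cells of low GFP, sampled 24, 48 and 72 h along, which makes 6 groups of 3 libraries. The sources used here do not say what the GFP marks, how the cells were parted by it, whether or when auxin was given, what event starts the clock, whether the line is a single clone, or whether replicate libraries stem from separate cultures. The p-values therefore measure library-to-library spread, part or all of which may be technical. Only the column names of 1 of the 3 library sets, called unnumbered, 1 and 2 below, link GFP with BRG1.

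Mitotic entry is driven by the kinase CDK1 bound to cyclin A or cyclin B, and the polo-like and aurora kinases amplify it and build the spindle. Kinetochores then tie chromosomes to microtubules, a checkpoint holds the anaphase-promoting complex until all are attached, and that ubiquitin ligase starts anaphase by marking cyclin B and securin for breakdown. Many of these genes are held off in G1 and switched on late in the cycle by the DREAM, B-MYB and FOXM1 complexes, which act on a short promoter element called the cell cycle homology region and on CCAAT boxes bound by NF-Y. Burkitt lymphoma cells divide quickly and express such genes at high levels.

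Promoters are shown first, as a description of elements that many members hold and some do not. RefSeq windows (GRCh38.p14) from 250 bases before to 50 after each transcription start were found for 41 of the 48 members. No window was matched for AURKA, BIRC5, TTK, UBE2C, TPX2, HMGB2 or CDCA2. The searches, on both strands, were for TTTGAA or TTCGAA (forms of the cell cycle homology region), for CCAAT, and for TTTCCCGC or TTTGGCGC (E2F site forms, typical of S phase genes); TTCGAA reads the same on both strands. A gene was counted when any of its windows held a form. A match is a match of letters and says nothing of binding. For 8 members the 150 bases up to the start are printed 5′ to 3′ on the gene's strand, with every CCAAT and TTTGAA, or its reverse complement, in capitals. The first 5 hold both elements and had log2 fold changes from -1.40 to -0.72 in GFP low cells at 24 h. MKI67 also holds both and rose at 24 h. Of the forms searched, CCNA2 holds CCAAT alone and KIF2C none, and both of these fell. Other forms of the cell cycle homology region were not searched, so a promoter without TTTGAA or TTCGAA may still hold such an element. The printed members were picked by no rule and do not stand for the rest. Of members not printed, CENPF, CKAP5 and KIF20B also hold both elements in their windows and rose at 24 h. KIF11 holds both and was not called then, and others with both fell.
CCNB2, chr15:59104996-59105145, plus strand: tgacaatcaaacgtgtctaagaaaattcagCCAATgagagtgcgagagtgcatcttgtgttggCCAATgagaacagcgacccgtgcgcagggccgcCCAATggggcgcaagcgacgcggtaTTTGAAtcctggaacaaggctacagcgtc
CKS1B, chr1:154974531-154974680, plus strand: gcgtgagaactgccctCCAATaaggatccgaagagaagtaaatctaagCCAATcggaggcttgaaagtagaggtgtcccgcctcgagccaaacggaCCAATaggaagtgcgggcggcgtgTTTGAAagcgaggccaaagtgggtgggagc
CKS2, chr9:89311045-89311194, plus strand: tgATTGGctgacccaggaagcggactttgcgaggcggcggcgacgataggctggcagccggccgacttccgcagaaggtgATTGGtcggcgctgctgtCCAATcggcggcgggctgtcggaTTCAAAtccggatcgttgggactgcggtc
PLK1, chr16:23678739-23678888, plus strand: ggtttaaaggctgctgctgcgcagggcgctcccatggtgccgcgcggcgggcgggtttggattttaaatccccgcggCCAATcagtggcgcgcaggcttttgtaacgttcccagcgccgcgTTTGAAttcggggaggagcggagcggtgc
CDC20, chr1:43358831-43358980, plus strand: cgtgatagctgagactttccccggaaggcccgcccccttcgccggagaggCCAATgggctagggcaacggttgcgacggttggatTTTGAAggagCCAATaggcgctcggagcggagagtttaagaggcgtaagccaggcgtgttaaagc
MKI67, chr10:128126424-128126573, minus strand: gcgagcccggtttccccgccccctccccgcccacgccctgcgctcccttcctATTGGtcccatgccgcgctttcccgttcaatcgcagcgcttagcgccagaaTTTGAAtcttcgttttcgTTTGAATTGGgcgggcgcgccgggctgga
CCNA2, chr4:121823884-121824033, minus strand: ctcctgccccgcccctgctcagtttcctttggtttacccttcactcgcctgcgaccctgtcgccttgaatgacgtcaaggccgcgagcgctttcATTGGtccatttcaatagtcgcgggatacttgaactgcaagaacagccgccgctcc
KIF2C, chr1:44739687-44739836, plus strand: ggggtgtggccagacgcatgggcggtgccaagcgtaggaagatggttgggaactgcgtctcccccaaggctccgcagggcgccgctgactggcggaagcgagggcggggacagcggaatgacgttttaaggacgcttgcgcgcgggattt

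In the printed stretches the TTTGAA form began 29 bases before the start in CCNB2, PLK1 and CKS2 (in CKS2 on the opposite strand), 30 bases before it in CKS1B and 65 in CDC20. The second of the pair in MKI67 also began 29 bases before the start and shares 1 letter with a CCAAT on the opposite strand. CCAAT boxes lay 54, 87 and 120 bases before the start in CCNB2, and 54, 102 and 134 bases before it in CKS1B.

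A cell cycle homology region form was present in 30 of 41 member promoters (73.2%), against 17.5% of 15843 protein-coding genes and 7.89% (3 of 38) of the S phase and replication genes whose windows were matched. CCAAT was also present in 30 of 41 members (73.2%), against 42.1% of protein-coding genes and 57.9% of the S phase genes. The E2F forms were the reverse: 4.88% of members (2 of 41), 3.7% of protein-coding genes and 44.7% of S phase genes (17 of 38). The cell cycle homology region forms and CCAAT were not particular to the members. Other mitotic motors and spindle genes, listed further below, held them in 70.4% and 74.1% of promoters. The shares were 60% and 53.3% for condensin and cohesin, and 50% and 66.7% for other kinetochore, centromere and checkpoint genes. They were 46.2% and 61.5% for the mitotic entry switch, and 31.6% and 52.6% for the anaphase-promoting complex and its partners. Fold changes are given beside the forms as a description. The median log2 fold change in GFP low cells at 24 h was -0.33 over the 30 members with a searched cell cycle homology region form. It was -0.36 over the 10 tested members without one, which may hold forms that were not searched. At 48 h both medians were -0.17, and at 72 h they were -0.15 and -0.17. For CCAAT the medians with and without it were -0.41 (n = 30) and -0.24 (n = 10) at 24 h; by 48 h they stood at -0.17 and -0.20, then -0.15 and -0.16. The E2F forms were found in 2 tested members, with a median of -0.10 at 24 h, against -0.33 over the 38 without them.

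Libraries held 27257876 to 55419458 counts in genes. Levels are given as TMM-scaled CPM, that is counts set relative to the size of their library, and the common biological coefficient of variation was 3.49%. All 8 B cell markers were expressed, with BLK lowest at 56.3 to 67.2 CPM. SMARCA4 mRNA reached 429 CPM at most in GFP high cells and at least 575 CPM in GFP low cells at 24 h and stayed higher in GFP low cells at both later times, which says nothing of the protein; SMARCA2 lay at 49.9 to 50.5 and 64.6 to 66.8 CPM at 24 h. Mitochondrial genes took 4.27% to 4.62% of counts at 24 h with high GFP and 3.48% to 3.64% with low GFP; at 72 h the order was opposite, with 2.67% to 2.79% and 3.81% to 3.98%. Of 7 T cell markers, 4 fell at 24 h, and their summed level was 31.3 to 31.9 CPM with high GFP and 17 to 18.4 CPM with low GFP, most of it from TRBC2 (14.2 to 25 CPM over all 18 libraries), with CD8A at 0 and CD2 at no more than 1 count per library. Summed myeloid markers lay at 0.88 to 1.1 and 2.16 to 2.55 CPM at 24 h, and 6 of 7 epithelial and fibroblast markers did not exceed 1.43 CPM, with COL1A1 at 1.53 to 9.61 CPM. The part of these shifts in the results below was not tested.

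G2 and M phase mRNAs were lower in GFP low cells at every time, most strongly at 24 h. At 24 h, 38 of 47 members fell and 6 rose, against 28.5% of all 16474 tested genes called lower and 29.3% called higher. At 48 h, 38 fell and 1 rose, against 13.2% and 10.6% of all genes. At 72 h, 30 fell and 0 rose, against 13.5% and 12.9% of all genes; 1 member was higher at an unadjusted p under 0.05, and DESeq2 also called 0 higher. A call means an adjusted p under 0.05 by quasi-likelihood testing in edgeR (Benjamini-Hochberg, over all tested genes).

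The sizes differed between times. The median log2 fold change over members was -0.36 at 24 h, -0.17 at 48 h and -0.15 at 72 h, beside 0.03, -0.01 and 0.00 over all tested genes. Values ran from -1.40 to 0.55 at 24 h, from -0.37 to 0.11 at 48 h and from -0.37 to 0.05 at 72 h. At 24 h, 18 members had fallen by at least 0.5 on the log2 scale, and none had at the later times. Tested against a fold of 1.2 in place of no change, 25 members were lower at 24 h, 2 at 48 h and 1 at 72 h. Of all tested genes, 15%, 1.37% and 1.63% were lower in that test, so the count at 72 h was near the share of all genes. In bulk RNA, fewer cells in G2 and mitosis and less of these mRNAs per cell cannot be told apart.

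The summed level of the members was also lower in GFP low cells at each time. At 24 h it was 9031 to 9264 CPM with high GFP and 7911 to 8163 CPM with low GFP. The ranges were 9216 to 9431 and 8170 to 8425 CPM at 48 h, and 8902 to 9119 and 8165 to 8338 CPM at 72 h. The summed levels of the groups did not overlap at any time. Taken singly, 37 members at 24 h, 38 at 48 h and 34 at 72 h had all 3 GFP low libraries below all 3 GFP high libraries, against 29.8%, 19.9% and 19.6% of all tested genes. Within each library set the members' median difference was -0.32 to -0.38 at 24 h, -0.17 to -0.18 at 48 h and -0.14 at 72 h.

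**Figure D1:**
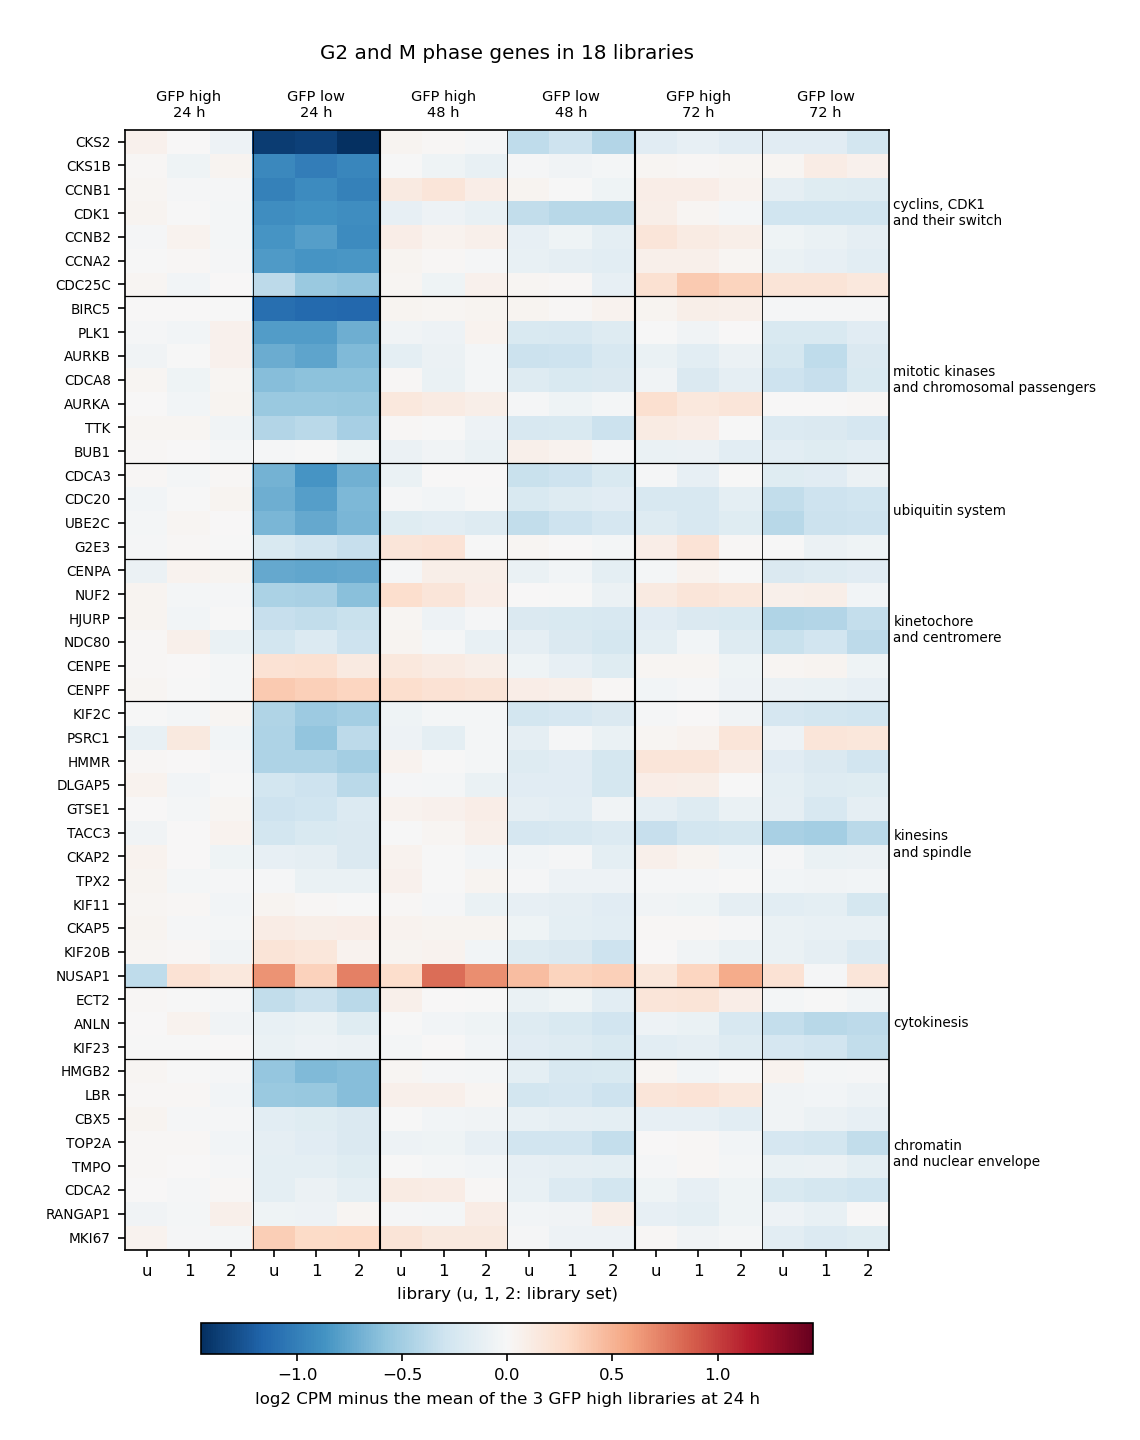
Each row is 1 of the 47 tested members, grouped by role, and each column 1 of the 18 libraries (u, 1 and 2 are the library sets). Colour is log2 CPM minus the mean of the 3 GFP high libraries at 24 h; the GFP low libraries at 24 h stand out as blue for most members, down to CKS2 with a fitted log2 fold change of -1.40, and as red for MKI67, CENPF, CENPE and NUSAP1.

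A core of 25 members fell at all 3 times, against 4.26% of all tested genes. It held CDK1 and the cyclins CCNA2, CCNB1 and CCNB2; the kinases PLK1, AURKA, AURKB and TTK with the passenger CDCA8; CDC20 and UBE2C; NDC80, CENPA and HJURP; KIF2C, HMMR, DLGAP5 and TACC3; KIF23, ANLN and ECT2; and TOP2A, CDCA2, TMPO and LBR. With each library's trend on exon length removed, NDC80 was not called at 24 or 48 h (adjusted p = 0.0636 and 0.0562). In that fit CDCA2 was not called at 24 h (-0.01, adjusted p = 0.848). Calls of other core genes that were lost under single choices are given below. No member rose at all 3 times (4.16% of all tested genes did), also at an unadjusted p under 0.05. No member fell at 24 h and rose at 72 h (2.16% of all genes did), and 1 did so at an unadjusted p under 0.05. As DESeq2 called no member higher at 72 h, its counts of both patterns are 0 too. With the library set as a block, CBX5 and RANGAP1 were called lower at 24 h and higher at 72 h, so that the count of the second pattern was 2.

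Cyclins, CDK1 and their switch showed the largest differences at 24 h. All 7 of these genes fell at 24 h, 5 fell at 48 h and 4 at 72 h, with medians of -0.90, -0.14 and -0.18. At 24 h they summed to 719 to 742 CPM with high GFP and 378 to 387 CPM with low GFP. At 72 h it was 736 to 767 and 647 to 666 CPM.

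CDK1 (ENSG00000170312.16, chr10:60778331-60794852, plus strand in hg38) encodes the kinase at the centre of mitotic entry. At 24 h it was measured at 169, 164 and 161 CPM in GFP high and at 88.1, 89.4 and 88.1 CPM in GFP low libraries. The values were 152, 156 and 153 against 129, 125 and 125 CPM at 48 h. They were 176, 168 and 162 against 135, 135 and 135 CPM at 72 h. No GFP low library reached a GFP high one at any time, and the log2 fold changes were -0.90 ± 0.03, -0.29 ± 0.03 and -0.32 ± 0.03 (± SE; adjusted p = 9.26e-17, 1.11e-07 and 1.45e-08).

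CCNA2 (ENSG00000145386.11, chr4:121816444-121823883, minus strand) encodes cyclin A2, which partners CDK2 in S phase and CDK1 in G2. It lay at 211, 214 and 208 CPM in GFP high and at 120, 117 and 118 CPM in GFP low libraries at 24 h. At 48 h its values were 217, 214 and 208 against 196, 194 and 190 CPM, and at 72 h 223, 222 and 215 against 197, 195 and 190 CPM. The GFP low libraries were below the GFP high ones throughout, by -0.84 ± 0.02, -0.14 ± 0.02 and -0.18 ± 0.02 log2 (adjusted p = 1.89e-17, 0.000101 and 5.18e-06). About 9.2% of its exon length overlaps EXOSC9 on the opposite strand, and the strand setting of the counting is not given.

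CKS2 (ENSG00000123975.5, chr9:89311195-89316703, plus strand), a small subunit that binds CDK1 and helps it reach its substrates, had the largest fall of all members. At 24 h it lay at 89.1, 85.5 and 81.2 CPM in GFP high and at 32.6, 33.2 and 31.1 CPM in GFP low libraries. At 48 h the values were 87.6, 86 and 84.1 against 66.1, 69.4 and 63.4 CPM. At 72 h they were 75.9, 78.5 and 75.9 against 76.1, 76.2 and 70.8 CPM. The gap was wide at 24 h (-1.40 ± 0.04, adjusted p = 3.76e-17), narrower at 48 h (-0.37 ± 0.04, adjusted p = 2.59e-07) and within the overlap of the groups at 72 h (-0.05 ± 0.04, adjusted p = 0.431).

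CKS1B, the other CDK subunit of that family, also takes part in the breakdown of the inhibitor p27. Its values at 24 h were 50.5, 48 and 51.4 CPM in GFP high and 26, 24.8 and 25.8 CPM in GFP low libraries. At 48 h the groups overlapped, with 49.7, 47.8 and 46.4 against 49.4, 48.3 and 49 CPM. At 72 h the values were 51, 50.3 and 50.9 against 50.8, 53.9 and 52.3 CPM, again overlapping. It fell by 0.97 ± 0.04 log2 at 24 h (adjusted p = 1.5e-15) and was not called at the later times. The B cyclins CCNB1 and CCNB2, whose breakdown ends mitosis, fell by 0.96 ± 0.03 and 0.86 ± 0.03 log2 at 24 h and were still called lower at 72 h, with -0.25 ± 0.03 and -0.22 ± 0.03. CDC25C, the phosphatase that activates CDK1, lay at only 7.49 to 14.4 CPM, fell at 24 h (-0.50 ± 0.07) and was not called later; FAM53C, which overlaps 8.8% of its exons on the opposite strand, has more counts than CDC25C itself.

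Mitotic kinases and chromosomal passengers fell with few exceptions. Of 7 genes, 6 fell at 24 h, 5 fell and 1 rose at 48 h, and 6 fell at 72 h. PLK1, which promotes mitotic entry and spindle assembly, differed by -0.78 ± 0.04, -0.19 ± 0.03 and -0.18 ± 0.03 log2 at the 3 times. The aurora kinases AURKA, of the spindle poles, and AURKB, of the inner centromere, differed by -0.54 ± 0.03 and -0.71 ± 0.04 at 24 h and by -0.18 ± 0.03 and -0.16 ± 0.04 at 72 h. CDCA8 (borealin), a partner of AURKB, stood at -0.61 ± 0.04, -0.17 ± 0.04 and -0.16 ± 0.04.

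BIRC5 (survivin; ENSG00000089685.15, chr17:78214186-78225636, plus strand) tethers AURKB to the centromere and also inhibits cell death. At 24 h it lay at 174, 174 and 172 CPM in GFP high and at 81.1, 78.9 and 78.2 CPM in GFP low libraries. At 48 h the groups overlapped at 179, 177 and 178 against 178, 175 and 179 CPM. At 72 h they were apart again, with 178, 184 and 183 against 171, 171 and 172 CPM. The log2 fold change was -1.13 ± 0.02 at 24 h (adjusted p = 7.63e-20), -0.00 ± 0.02 at 48 h (adjusted p = 0.909) and -0.09 ± 0.02 at 72 h (adjusted p = 0.00482).

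TTK, the checkpoint kinase also named MPS1, was the gene of its group with the smallest p at 48 and 72 h. It lay at 160, 160 and 151 CPM in GFP high and at 117, 120 and 112 CPM in GFP low libraries at 24 h. The values were 159, 157 and 149 against 134, 134 and 126 CPM at 48 h, and 170, 168 and 157 against 137, 136 and 132 CPM at 72 h. The groups never overlapped, and the log2 fold changes of -0.43 ± 0.04, -0.24 ± 0.04 and -0.29 ± 0.04 were closer to each other than those of BIRC5. BUB1, a checkpoint kinase at the kinetochore, was the single member that rose at 48 h and is named for that after its values were seen. Its libraries lay at 200, 205 and 198 CPM in GFP high and 222, 219 and 209 CPM in GFP low cells then (0.11 ± 0.03, adjusted p = 0.00385), and it was not called at 24 h (-0.03 ± 0.03) or 72 h (-0.05 ± 0.03).

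**Figure D2:**
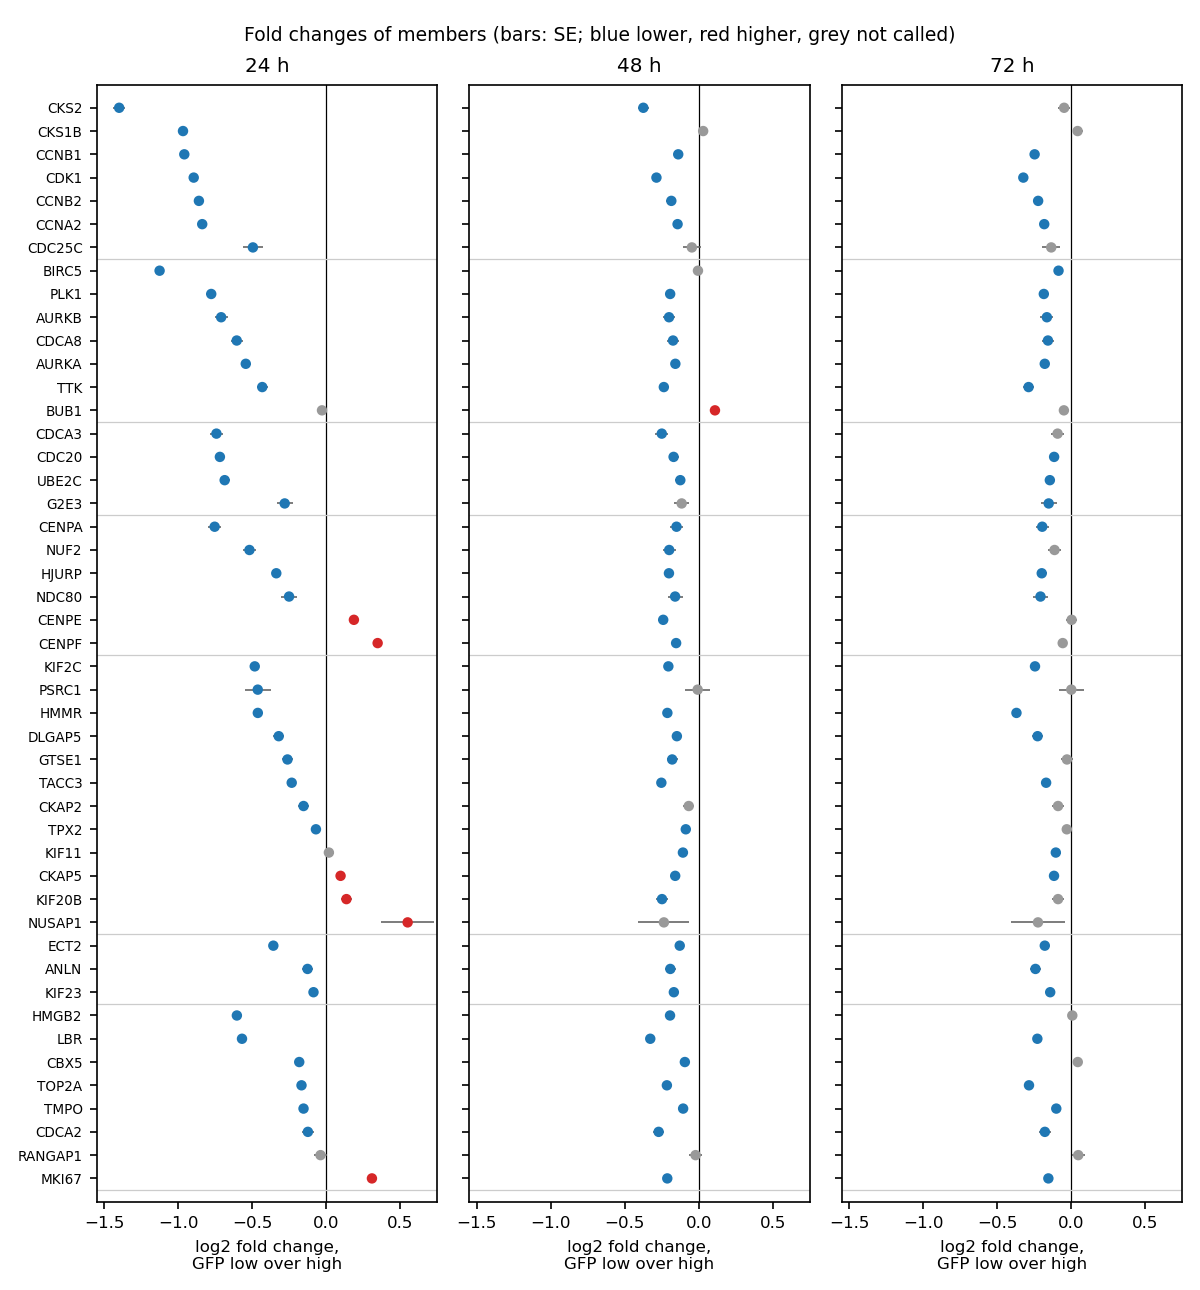
The 3 panels give, for 24, 48 and 72 h, the log2 fold change of GFP low over GFP high for each tested member in the same order as the heat map, with bars for the SE. Blue points were called lower (38, 38 and 30 members), red ones higher (6, 1 and 0), and grey ones were not called; the points spread over -1.40 to 0.55 at 24 h and lie between -0.37 and 0.11 at the later times.

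Genes of the ubiquitin system that ends mitosis fell at 24 h in 4 of 4 cases, and 3 of 4 fell at 48 h and at 72 h. CDC20, which activates the anaphase-promoting complex, lay at 150, 154 and 159 CPM in GFP high and at 93.9, 88.7 and 98 CPM in GFP low libraries at 24 h. The difference of -0.72 ± 0.03 log2 (adjusted p = 7.65e-14) shrank to -0.11 ± 0.03 at 72 h, where 131, 132 and 139 CPM stood against 120, 126 and 126 CPM; that call was lost without the set 2 GFP high library (adjusted p = 0.0985) or the unnumbered GFP low library (adjusted p = 0.108). UBE2C, the ubiquitin-conjugating enzyme of that complex, lay at 98.4, 102 and 101 against 63.6, 60.2 and 63.4 CPM at 24 h (-0.69 ± 0.03). At 72 h it lay at 88.2, 85.4 and 89.1 against 75.8, 80.7 and 81.3 CPM (-0.14 ± 0.03, adjusted p = 0.00347). Its 5 named pseudogenes hold counts equal to 5.99% of its own, so its level is less certain than that of other members.

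CDCA3, a substrate adaptor for the ubiquitin ligase that destroys WEE1, lay at 56.5, 60.5 and 60.3 CPM in GFP high and at 48.3, 49.1 and 51.8 CPM in GFP low libraries at 48 h. Its log2 fold changes were -0.74 ± 0.04, -0.25 ± 0.04 and -0.09 ± 0.04. The last was not called (adjusted p = 0.132) but was called with the set as a block (adjusted p = 0.0215). G2E3, a ubiquitin ligase expressed in G2, had smaller differences of -0.28 ± 0.05, -0.12 ± 0.05 and -0.15 ± 0.05, called at 24 and 72 h and, with the library set as a block, at 48 h too (adjusted p = 0.0256).

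Kinetochore and centromere genes divided at 24 h, when 4 fell and 2 rose, and all 6 fell at 48 h. CENPA, the histone H3 variant that marks centromeres, lay at 26.4, 29 and 28.8 CPM in GFP high and at 16.7, 16.6 and 16.7 CPM in GFP low libraries at 24 h (-0.76 ± 0.05, adjusted p = 4.71e-12), though 7.1% of its exon length is shared with SLC35F6 on the same strand, which has about as many counts. HJURP, the chaperone that deposits CENPA, lay at 66, 64 and 63.6 against 54.9, 55.3 and 58.1 CPM at 72 h and was lower at all 3 times (-0.34 ± 0.03, -0.20 ± 0.03 and -0.20 ± 0.03). NDC80 and NUF2, which form the arm that grips microtubules, fell by 0.25 ± 0.05 and 0.52 ± 0.05 log2 at 24 h. At 72 h NDC80 was called lower (-0.21 ± 0.05), and NUF2 was called with the library set as a block and not without it (-0.11 ± 0.04, adjusted p = 0.00211 and 0.0649).

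CENPE and CENPF moved the other way at 24 h. CENPE, a kinesin that carries chromosomes to the spindle equator, lay at 196, 195 and 190 CPM in GFP high and at 225, 226 and 212 CPM in GFP low libraries at 24 h. At 48 h the order was turned, with 216, 211 and 205 against 185, 179 and 171 CPM, and at 72 h the groups overlapped at 197, 198 and 186 against 198, 199 and 186 CPM. The log2 fold changes were 0.19 ± 0.03, -0.24 ± 0.03 and 0.00 ± 0.03 (adjusted p = 7.77e-05, 1.95e-05 and 0.96). CENPF, a large outer kinetochore protein, lay at 499, 490 and 480 against 639, 623 and 606 CPM at 24 h (0.35 ± 0.02). It lay at 580, 567 and 558 against 525, 513 and 496 CPM at 48 h (-0.15 ± 0.02). At 72 h it stood at 477, 484 and 465 against 463, 458 and 452 CPM, a difference of -0.06 ± 0.02 that was called with the set as a block (adjusted p = 0.000775) and not without it (adjusted p = 0.097).

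The kinesin and spindle group holds 12 genes. At 24 h 8 fell and 3 rose, at 48 h 9 fell, and at 72 h 6 fell. KIF2C, a kinesin that disassembles microtubules at centromeres, lay at 110, 109 and 112 CPM in GFP high and at 81.7, 76.8 and 78.7 CPM in GFP low libraries at 24 h and was lower throughout (-0.48 ± 0.03, -0.21 ± 0.03 and -0.24 ± 0.03). HMMR, a spindle protein that binds hyaluronan and microtubules, had the largest fall of all members at 72 h, with 177, 178 and 170 against 140, 136 and 130 CPM (-0.37 ± 0.03, adjusted p = 1.08e-08). TACC3, which crosslinks spindle microtubules, lay at 221, 226 and 233 against 188, 190 and 194 CPM at 48 h. Its log2 fold changes were -0.23 ± 0.03, -0.25 ± 0.03 and -0.17 ± 0.03. The change of its difference from 24 to 72 h was called with the set as a block (0.07, adjusted p = 0.0156). It was also called with the trend on exon length removed (0.17, adjusted p = 0.00377) and not with that on principal transcript length removed (0.02, adjusted p = 0.745).

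The 3 members of this group that rose at 24 h were CKAP5, KIF20B and NUSAP1. CKAP5, a microtubule polymerase, lay at 459, 443 and 437 CPM in GFP high and at 481, 473 and 477 CPM in GFP low libraries at 24 h (0.10 ± 0.02), and at 463, 458 and 457 against 429, 405 and 401 CPM at 48 h (-0.16 ± 0.02). At 72 h it was lower too, with 453, 452 and 442 against 417, 414 and 413 CPM (-0.12 ± 0.02). KIF20B, a kinesin of the midbody, lay at 132, 130 and 124 against 146, 144 and 134 CPM at 24 h (0.14 ± 0.04) and at 132, 134 and 125 against 113, 112 and 105 CPM at 48 h (-0.25 ± 0.04). At 72 h its values of 129, 124 and 120 against 121, 118 and 112 CPM were called lower with the set as a block (adjusted p = 0.000879) and not without it (-0.09 ± 0.04, adjusted p = 0.117).

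NUSAP1, a microtubule-bundling protein, was barely measured. It had 25 to 88 counts per library. Of its exon length, 81.4% is shared with another annotated gene on the same strand, ENSG00000285920, and 9.8% with OIP5 on the opposite one, and how reads in shared exons were counted is not given in the sources used here. It lay at 0.847, 1.26 and 1.22 against 1.71, 1.38 and 1.81 CPM at 24 h (0.55 ± 0.18, adjusted p = 0.0122). That call was lost without the unnumbered GFP high library (adjusted p = 0.0615) or the set 2 GFP low library (adjusted p = 0.0678), or with no filter on low counts (adjusted p = 0.0643), and its level is uncertain. Of the others, DLGAP5, GTSE1 and PSRC1 fell by 0.32 ± 0.04, 0.26 ± 0.04 and 0.46 ± 0.09 log2 at 24 h. TPX2, which activates AURKA on the spindle, had small differences (-0.07 ± 0.02, -0.09 ± 0.02 and -0.03 ± 0.02, the last not called). With the trend on exon length removed, TPX2 at 24 h turned to 0.05 and was not called (adjusted p = 0.108). CKAP2, a spindle-associated protein, fell at 24 h (-0.15 ± 0.04) and was called at 48 and 72 h with the set as a block (adjusted p = 0.00527 and 0.00264) and not without it. KIF11, the kinesin that pushes the spindle poles apart, was not called at 24 h (0.02 ± 0.03) and fell slightly at 48 and 72 h (-0.11 ± 0.03 and -0.10 ± 0.03). With the trend on principal transcript length removed, KIF11 was called lower at 24 h (-0.09, adjusted p = 0.0273) and not called at 48 h (adjusted p = 0.0557).

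The 3 tested cytokinesis genes fell at every time, and KIF23 and ANLN least at 24 h. KIF23, a kinesin of the central spindle, lay at 123, 126 and 121 CPM in GFP high and at 112, 110 and 108 CPM in GFP low libraries at 48 h, with log2 fold changes of -0.09 ± 0.03, -0.17 ± 0.03 and -0.14 ± 0.03 over the times. ANLN (anillin), which scaffolds the contractile ring, lay at 144, 141 and 128 against 118, 114 and 116 CPM at 72 h, with -0.13 ± 0.04, -0.19 ± 0.04 and -0.24 ± 0.04; the call at 24 h was lost without the set 1 GFP high library (adjusted p = 0.0612). With upper quartile scaling neither KIF23 (-0.02) nor ANLN (-0.06) was called at 24 h, nor was KIF23 with a filter at a mean of 1 CPM (-0.06). With the trend on principal transcript length removed, ANLN fell least at 48 h (-0.23, -0.18 and -0.26 over the times). KIF23 then stood at -0.12, -0.15 and -0.15. ECT2, the exchange factor that switches on RHOA at the cleavage furrow, had its largest difference at 24 h: 123, 121 and 120 against 94.7, 97.5 and 92.5 CPM (-0.36 ± 0.03, then -0.13 ± 0.03 and -0.18 ± 0.03), and its call at 48 h was lost without the set 2 GFP low library (adjusted p = 0.0673).

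Chromatin and nuclear envelope genes include the member with the highest level per length. Per kilobase of summed exon length, HMGB2 was highest of all members in GFP high cells at 24 h with 162 CPM per kb, CKS2 was next, TOP2A stood at 101 and TPX2 at 98.4, and NUSAP1 was lowest of the tested ones with 0.307. Of 8 genes in this group, 6 fell and 1 rose at 24 h, 7 fell at 48 h and 5 fell at 72 h.

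LBR (ENSG00000143815.15, chr1:225401502-225428925, minus strand), the lamin B receptor, which holds chromatin to the inner nuclear membrane, had the smallest p of all members at 48 h. It lay at 556, 554 and 534 CPM in GFP high and at 377, 375 and 356 CPM in GFP low libraries at 24 h. The values were 575, 576 and 560 against 456, 462 and 445 CPM at 48 h, and 618, 627 and 608 against 528, 532 and 521 CPM at 72 h. The groups stayed apart while the difference narrowed from -0.57 ± 0.02 to -0.33 ± 0.02 and -0.23 ± 0.02 (adjusted p = 6.7e-15, 7.48e-10 and 1.81e-07).

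TOP2A, the topoisomerase that untangles sister chromatids, fell at each of the 3 times. Its libraries lay at 651, 650 and 627 against 588, 572 and 556 CPM at 24 h, at 611, 614 and 591 against 532, 528 and 505 CPM at 48 h, and at 644, 650 and 625 against 541, 532 and 503 CPM at 72 h. The difference was -0.17 ± 0.03 at 24 h, -0.22 ± 0.03 at 48 h and -0.28 ± 0.03 at 72 h, and the change from 24 to 72 h was called (-0.12 ± 0.04, adjusted p = 0.0213). That change was not called with the trend on exon length removed (-0.09, adjusted p = 0.115) and was 0.01 (adjusted p = 0.925) with that on principal transcript length removed.

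MKI67 (ENSG00000148773.14, chr10:128096659-128126423, minus strand) encodes Ki-67, the proliferation marker that coats mitotic chromosomes. At 24 h it was higher in GFP low cells, with 979, 937 and 929 CPM in GFP high and 1213, 1147 and 1163 CPM in GFP low libraries (0.31 ± 0.02, adjusted p = 3.55e-10). At 48 h it was lower, with 1081, 1043 and 1049 against 938, 899 and 902 CPM (-0.21 ± 0.02), and at 72 h too, with 956, 917 and 928 against 849, 828 and 840 CPM (-0.15 ± 0.02). The groups did not overlap at any time, so MKI67 CPM gave opposite orders at 24 h and later. With the trend on exon length removed, the rise at 24 h was smaller (0.12, adjusted p = 0.000161). With that on principal transcript length removed, it was not called (0.02, adjusted p = 0.459).

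HMGB2, a DNA-bending chromatin protein, fell by 0.60 ± 0.03 log2 at 24 h and 0.19 ± 0.03 at 48 h and was level at 72 h (0.01 ± 0.03). TMPO, a lamina-associated protein, and CDCA2, which recruits a phosphatase to chromosomes at mitotic exit, were lower at all 3 times, with log2 fold changes from -0.27 to -0.10. CBX5, the heterochromatin protein HP1-alpha, fell at 24 and 48 h (-0.18 ± 0.02 and -0.09 ± 0.02) and stood at 0.05 ± 0.02 at 72 h, which was called higher with the set as a block (adjusted p = 0.00119) and not without it (adjusted p = 0.127). RANGAP1, the activator of the RAN GTPase, was not called at any time; with the block it was called lower at 24 h (-0.04, adjusted p = 0.0368) and higher at 72 h (0.05, adjusted p = 0.0234).

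**Figure D3:**
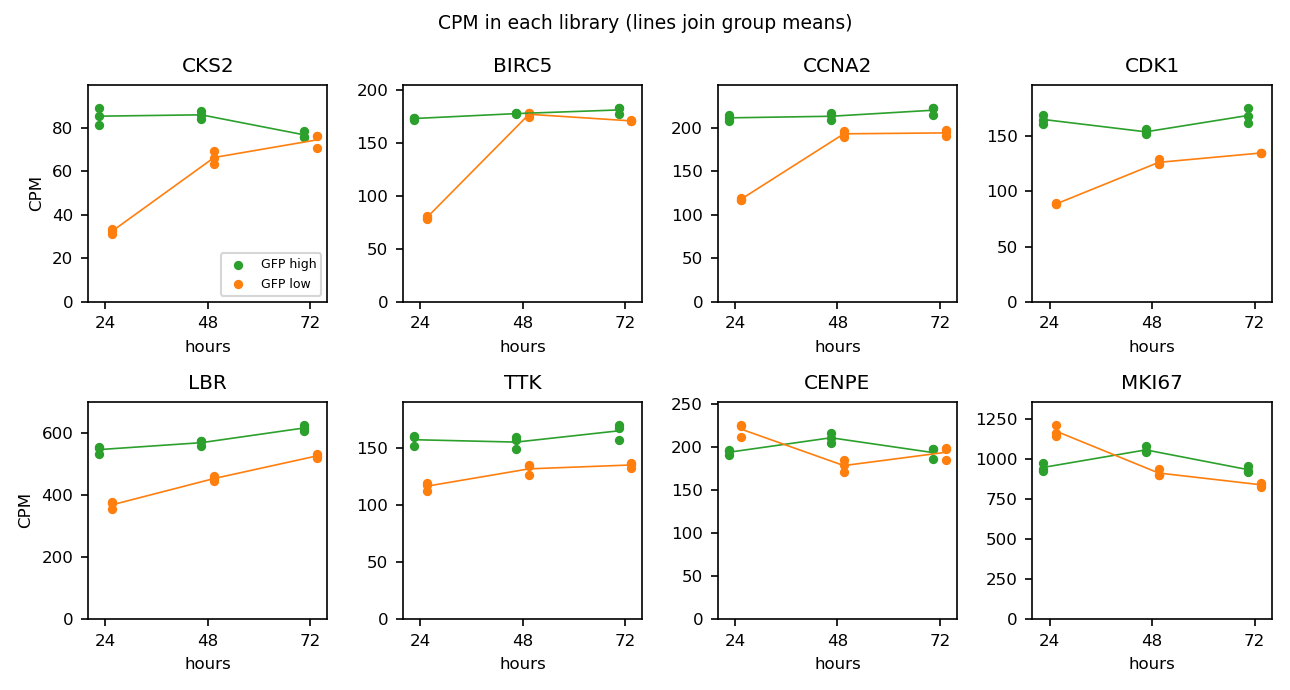
CPM (library-scaled counts) of 8 members in each library against time in hours, with GFP high in green and GFP low in orange, 3 points per group and lines through the group means. CKS2, BIRC5, CCNA2 and CDK1 rose in GFP low cells between 24 and 48 h towards the GFP high level (CKS2 from 31.1 to 33.2 CPM up to 63.4 to 69.4 CPM), LBR and TTK stayed apart at all times, and CENPE and MKI67 changed order.

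Tested directly, the GFP difference changed between 24 and 72 h for 34 members. For 26 it was higher (less negative) at 72 h and for 8 it was lower, against 22.2% and 19.6% of all tested genes. The count of 8 was near the share of all genes. With upper quartile scaling the shares of all genes were 17.7% higher and 25% lower, and 23 members were higher and 10 lower. The changes ran from 1.35 ± 0.06 for CKS2, 1.04 ± 0.03 for BIRC5, 1.01 ± 0.05 for CKS1B and 0.66 ± 0.03 for CCNA2 to -0.46 ± 0.03 for MKI67 and -0.77 ± 0.26 for NUSAP1. All 7 cyclin and CDK1 genes were among the 26. With the trend on principal transcript length removed, 25 members were higher and 3, NUSAP1, MKI67 and CENPF, were lower. In that fit 18.3% of all tested genes were higher and 19.4% lower.

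Over time, within GFP low cells, 29 members rose and 9 fell from 24 to 48 h, against 25.7% and 25.1% of all tested genes, and 28 rose and 13 fell from 24 to 72 h, against 29.6% and 27.5%. Within GFP high cells, 7 rose and 4 fell from 24 to 48 h, against 10.6% and 9.97% of all genes, and 9 rose and 12 fell from 24 to 72 h, against 13.9% and 15%. The members' median changes from 24 to 48 h were 0.24 in GFP low and 0.01 in GFP high cells. These comparisons share the 24 h libraries of their GFP level with the differences above. With DESeq2, 8.71% of all genes rose and 12.3% fell from 24 to 48 h in GFP high cells. The counts of 4 and 7 in GFP high cells were 6 and 13 with the library set as a block, and the count of 4 was 1 without the unnumbered GFP high library at 24 h or at 48 h, and 2 without the set 1 library at 24 h or the set 2 library at 48 h.

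At 24 h the size of the difference went with transcript length. Of 25 members with a principal transcript of up to 3000 bp, 24 fell and NUSAP1 rose; of 16 above 3000 and up to 6000 bp, 13 fell and 0 rose; of 6 longer ones, 5 rose (KIF20B, CKAP5, CENPE, CENPF and MKI67) and CBX5 fell. Across the 47 members Spearman's rho between log2 fold change and principal transcript length was 0.75 at 24 h, 0.02 at 48 h and 0.10 at 72 h. Across 10111 protein-coding genes of at least 1 CPM it was 0.49, -0.02 and 0.06. These are descriptions across genes that share the same libraries, and genes are not independent replicates.

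In each of 7 length classes the members' median at 24 h was below that of protein-coding genes. Members above 1000 and up to 2000 bp had a median of -0.72 (n = 10) where protein-coding genes of that length had -0.27 (n = 1945), and those above 2000 and up to 3000 bp had -0.52 (n = 12) against -0.09 (n = 2310). The 4 members above 8000 bp had a median of 0.25 against 0.30 for 751 genes. With each library's trend on principal transcript length removed, an alternative added after the values were seen, 41 members fell and 2 rose at 24 h. Of all tested genes, 25.4% fell and 31.1% rose in that fit. BIRC5 then had the largest fall (-1.07), CKS2 the next, CKS1B stood at -0.59 and UBE2C at -0.31. CKAP5 was called lower (-0.10, adjusted p = 0.000742), CENPE, KIF20B and MKI67 were not called (-0.04, -0.03 and 0.02), and CENPF remained called higher (0.09, adjusted p = 0.00214) along with NUSAP1. At 48 and 72 h that fit called 36 and 32 members lower, against 11.5% and 14.5% of all tested genes.

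**Figure D4:**
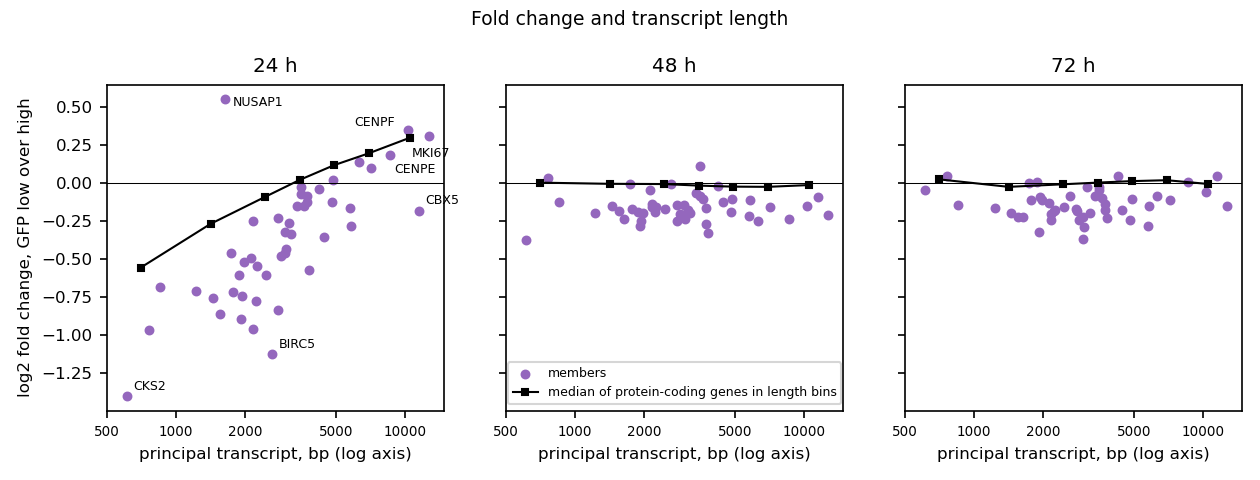
The 3 panels plot, for 24, 48 and 72 h, the log2 fold change of GFP low over GFP high against principal transcript length in bp on a log axis; purple points are the 47 tested members and black squares the medians of protein-coding genes, placed at the middle of 7 length bins. The slope is seen at 24 h (Spearman's rho 0.75 for members) and not at the later times (0.02 and 0.10), where most members lie just below 0.

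Other genes of the same pathway were described from lists chosen with earlier results of these data known. Beside the counts of these lists, 28.5% of all tested genes fell and 29.3% rose at 24 h. The shares were 13.2% and 10.6% at 48 h, and 13.5% and 12.9% at 72 h. Among 16 genes of the mitotic entry switch, 15 fell at 24 h, 8 fell and 1 rose at 48 h, and 4 fell at 72 h. BORA, which lets AURKA activate PLK1, differed by -0.60 ± 0.03, -0.22 ± 0.03 and -0.29 ± 0.03. WEE1, the kinase that restrains CDK1, fell by 0.22 ± 0.03 log2 at 48 h. The checkpoint kinase CHEK2 was the gene of the list that rose then (0.24 ± 0.03). Among 19 genes of the anaphase-promoting complex and its partners, 15 fell and 1 rose at 24 h, 3 fell at 48 h and 4 at 72 h. The count at 48 h was near the share of all genes. PTTG1 (securin), a substrate of the complex, stood at -0.89 ± 0.03 at 24 h and -0.18 ± 0.03 at 48 h.

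Of 37 other kinetochore, centromere and checkpoint genes, 27 fell and 3 rose at 24 h, 15 fell and 1 rose at 48 h, and 14 fell and 2 rose at 72 h, with the checkpoint protein MAD2L1 at -0.90 ± 0.03 and the scaffold KNL1 at 0.32 ± 0.04 at 24 h. Of 29 tested motors and spindle genes, 22 fell and 3 rose at 24 h, and 18 fell at each later time, with no rise. TUBA1B, an alpha tubulin, stood at -0.85 ± 0.03 at 24 h, and ASPM, of the spindle poles, was lowest at 48 h (-0.31 ± 0.03). Of 17 genes of condensin and cohesin, which shape and hold chromosomes, 6 fell and 7 rose at 24 h, near the 28.5% and 29.3% of all tested genes, with values from CDCA5 (-0.41 ± 0.04) to SMC3 (0.42 ± 0.03), and 6 fell at 48 h.

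S phase and replication genes were compared as the neighbouring part of the cycle. At 24 h 32 of 46 fell and 5 rose, with a median of -0.26. At 48 h 4 fell and 7 rose, and at 72 h 7 fell and 6 rose, with medians of 0.01 and 0.00 where the members had -0.17 and -0.15. Of all tested genes, 13.2% fell and 10.6% rose at 48 h, and 13.5% and 12.9% at 72 h. The counts of S phase genes at 72 h were near those shares. GINS2, of the replicative helicase, stood at -0.78 ± 0.03 at 24 h. At 48 h TYMS, which makes thymidylate, and the cyclin CCNE2 were higher in GFP low cells (0.20 ± 0.03 and 0.28 ± 0.04). The difference between the lists was not tested.

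The regulators of these genes gave mixed calls. Of 24, 9 fell and 4 rose at 24 h, 4 fell and 3 rose at 48 h, and 3 fell and 6 rose at 72 h. The shares of all tested genes were 28.5% and 29.3%, 13.2% and 10.6%, and 13.5% and 12.9%. The counts of regulators at 48 h and the falls at 72 h were near those shares. FOXM1, which activates many of the members in G2, differed by -0.06 ± 0.03 (not called, adjusted p = 0.0949), -0.09 ± 0.03 and 0.13 ± 0.03. MYBL2, which encodes B-MYB, differed by -0.16 ± 0.03, 0.02 ± 0.03 (not called) and 0.10 ± 0.03. Both regulators were thus called higher in GFP low cells at 72 h (adjusted p = 0.00403 and 0.0155). At that time 30 members were called lower and 0 higher. These are mRNA levels, and the activity of the encoded proteins was not tested. Whether the levels of the regulators bear on those of the members was not tested either. CDKN1A, which encodes the CDK inhibitor p21, was lower at all 3 times (-0.54 ± 0.05, -0.55 ± 0.05 and -0.75 ± 0.05), and TFDP2, a partner of E2F factors, was higher at all 3 (0.35 ± 0.03, 0.15 ± 0.03 and 0.20 ± 0.03).

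**Figure D5:**
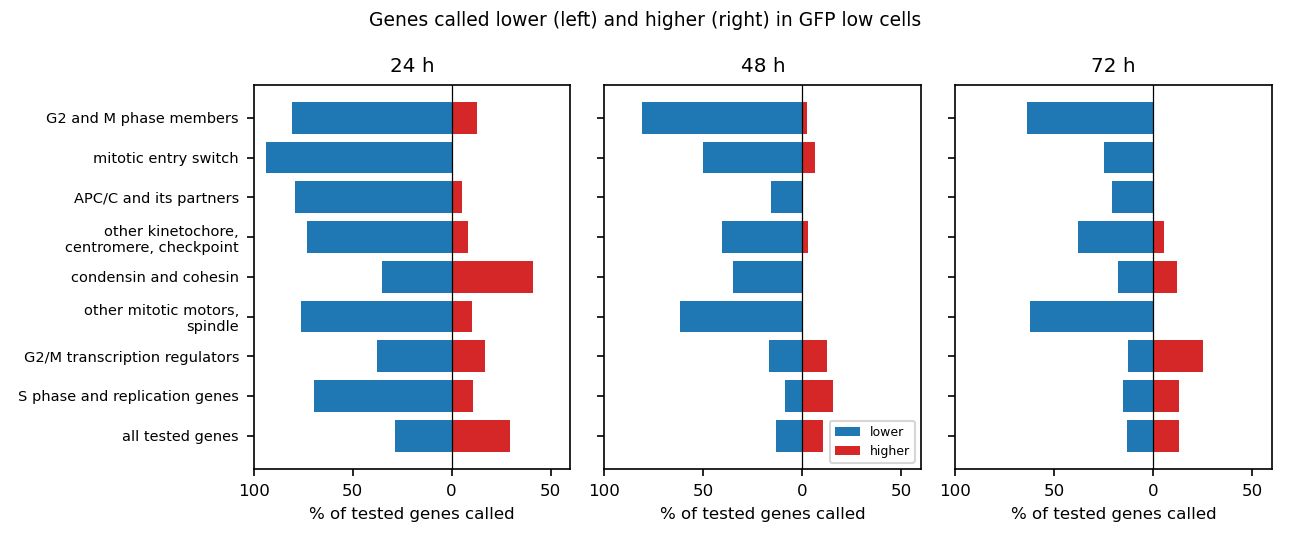
Horizontal bars give, for each list and for all 16474 tested genes, the percentage of tested genes called lower (blue, to the left) and higher (red, to the right) in GFP low cells at 24, 48 and 72 h. The members (38, 38 and 30 of 47 lower) and the other motors and spindle genes (22, 18 and 18 of 29 lower) keep long blue bars at all times, while the bars of the S phase genes shorten from 32 to 4 and 7 of 46.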

How the data were processed

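Total RNA of Raji cells (18 libraries) was extracted with a column kit and made into libraries after depletion of ribosomal RNA, per the labels' protocols. The authors deposited raw counts per gene, which per the submitters' processing notes involved hg38 and the tools FastQC, STAR, featureCounts, Subread and R 4.2.1, named with no role or order. No source used here gives the annotation release, the strand setting or the handling of reads with several matches. Of the table, 60707 genes were read; 1 entry broken over 3 lines (ANK2) was left out. Columns carry a GFP level and D1, D2 or D3, taken as 24, 48 and 72 h. Which titled replicate a column holds is not known, so the set named in a column (unnumbered, 1 or 2) served as its replicate.

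Counts were fitted with edgeR 4.0.16 (R 4.3.3, limma 3.58.1): TMM factors, the default filter on low counts (16474 genes), 6 group means over all libraries, 12 residual degrees of freedom and 2-sided quasi-likelihood tests, with Benjamini-Hochberg adjustment over all tested genes and a threshold of 0.05. Scripts were tested on simulated data. Replicates differed by more than sampling noise (median chi-square 1.45 to 2.81 times its expected value). Across genes, library deviations from their group mean had correlations of 0.22 to 0.55 within a set and -0.42 to 0.03 between sets, and 18 of 18 libraries were closest to their own set. The set was therefore also fitted as a block, and its values stand beside a result where they change a call. Other alternatives were upper quartile and RLE factors, DESeq2 1.42.0, other filters, removal of a trend on gene length, fits on the compared groups alone, a test against a fold of 1.2, and leaving out each library.

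Values by library were given for, in each role group, the member with the smallest adjusted p at each time, members called opposite to most of their role at 24 h, and the 4 smallest adjusted p for the change of the GFP difference; from other lists up to 4 genes per direction and time were eligible, besides FOXM1 and MYBL2. The members and lists were chosen with earlier results of these data known. Promoter windows came from RefSeq (GRCh38.p14).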

Additional observations from a re-analysis of the deposited data

Results flagged for a closer look

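The difference between GFP low and GFP high cells was compared between 24 and 72 h by the test of that change in edgeR's quasi-likelihood fit, and a call in it flags a member here (adjusted p under 0.05 over all tested genes). It was called higher at 72 h for 26 members and lower for 8, against 22.2% and 19.6% of all tested genes. The count of 8 was near the share of all genes. Among members named by the rule, the change was 1.35 log2 for CKS2, 1.04 for BIRC5, 1.01 for CKS1B, 0.66 for CCNA2, 0.65 for CDCA3, 0.60 for CDC20, 0.57 for CDK1, 0.56 for CENPA and 0.54 for UBE2C. It was smaller for LBR (0.34), KIF2C (0.24), ECT2 (0.18), TTK (0.15) and HJURP (0.14). It was negative for NUSAP1 (-0.77), MKI67 (-0.46), CENPF (-0.40), KIF20B (-0.22), CKAP5 (-0.21), CENPE (-0.18) and TOP2A (-0.12). Across the 47 tested members these changes had a Spearman's rho of -0.74 with principal transcript length, beside -0.51 across 10111 protein-coding genes. With each library's trend on principal transcript length removed, NUSAP1 (-0.98), MKI67 (-0.16) and CENPF (-0.15) were still called lower. KIF20B (-0.08, adjusted p = 0.27) and CKAP5 (-0.04, adjusted p = 0.299) were not called, and neither were CENPE (0.03, adjusted p = 0.64) and TOP2A (0.01, adjusted p = 0.925), whose sign turned. Of the positive changes, TTK was then not called (0.12, adjusted p = 0.119), and UBE2C (0.15), CENPA (0.31) and CKS1B (0.60) were called with smaller values.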

How the results depend on the processing

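Counts of members called, lower and higher, stayed within 1.5 times of those reported under RLE factors, DESeq2, fits on the compared groups alone and no filter on low counts. The falls from 24 to 48 h within GFP high cells (4 reported) numbered 1 under upper quartile factors and 2 with a filter at a mean of 1 CPM. With the library set as a replicate block, 2 members rose at 72 h (0 reported) and 13 rose from 24 to 48 h within GFP high cells (7 reported); with the length trend also removed these counts were 1 and 17. Beside the calls given with each gene, the block changed no other call of a member's GFP difference at a single time. With the trend on exon length removed, 3 members rose at 24 h (6 reported), against 31.6% of all tested genes. With that on principal transcript length removed, chosen after seeing the data, 2 rose at 24 h, against 31.1% of all genes. In the latter fit 3 had a lower difference at 72 than at 24 h (8 reported), against 19.4% of all genes. There 4 fell from 24 to 48 h within GFP low cells (9 reported), against 23.6% of all genes. CKAP5 at 24 h turned from 0.10 to -0.0259 without the exon length trend, to -0.0244 with the block as well, and to -0.10 without the principal transcript trend, under which CENPE (-0.0433) and KIF20B (-0.0316) turned too. Without the exon length trend CKS2 was called lower at 72 h (-0.11). Against a fold of 1.2, 25 members were lower and 2 higher at 24 h, 2 lower and 0 higher at 48 h, and 1 lower at 72 h. Of all tested genes, 15% were lower and 13.2% higher at 24 h, 1.37% and 2.08% at 48 h, and 1.63% lower at 72 h. The same test left 2 with a lower difference at 72 than at 24 h, 0 lower and 0 higher within GFP high cells at either later time, 2 lower and 18 higher from 24 to 48 h within GFP low cells, and 2 lower from 24 to 72 h. The cause of these moves was not tested, other than that a test against a fold asks for a larger difference.

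Leaving out 1 library at a time gave 37 to 38 lower and 5 to 6 higher members at 24 h, 32 to 38 and 1 at 48 h, and 27 to 31 and 0 at 72 h. The change of the difference was called lower for 6 to 8 and higher for 25 to 28. Within GFP high cells 1 to 4 fell and 5 to 7 rose from 24 to 48 h, and 11 to 14 fell and 7 to 10 rose from 24 to 72 h. Within GFP low cells 8 to 9 fell and 27 to 32 rose, and 11 to 13 fell and 27 to 30 rose. Of 1422 such values for named members, 1410 kept their call. Beside the lost calls given with CDC20, NUSAP1, ANLN and ECT2, CENPA at 48 h was not called without either numbered GFP high library or without the unnumbered or set 2 GFP low library of that time (adjusted p = 0.0574 to 0.115) or with no filter on low counts (adjusted p = 0.0741), nor UBE2C at 48 h without the unnumbered GFP low library (adjusted p = 0.117). CENPF at 72 h became called without the set 2 GFP high library (adjusted p = 0.045). Low counts limit what can be said of NUSAP1, with at most 88 in a library, and of GAS2L3, with 0. Why these counts were low was not tested.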
